A study of Homo sapiens with 6 samples.

Results

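The genes described here are 9 members of the p53 network, chosen by symbol: MDM2 and MDM4, the regulators of p53, and TP53INP1, AEN, TRIAP1, PLK2, PLK3, ZMAT3 and FAS, which are known p53 targets. A mean of at least 10 normalized counts over the 6 libraries was required, and all 9 met it, out of 13465 genes that did so among the 17202 in the table. The cells were DND41, an established line from a T-cell acute lymphoblastic leukaemia (T-ALL). In 3 libraries the cells had been exposed for 24 h to MB1-47, a mitochondrial uncoupling drug by the study's title, at a dose the labels write as 4 mM (the unit was not checked), and in 3 libraries to the solvent DMSO. Both groups were grown in medium with 10% serum. The labels say only that cells were plated in triplicate, in 1 cell line, so the spread behind each p-value is that of these 6 libraries and may be partly technical.

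p53 is a transcription factor that responds to DNA damage and other stress by switching on genes for cell cycle arrest, DNA repair and cell death. MDM2 is an E3 ubiquitin ligase that marks p53 for degradation and is itself a p53 target, which closes a negative feedback loop. MDM4, also called MDMX, is the paralog of MDM2: it binds and inhibits p53 and pairs with MDM2, but has little ligase activity of its own. Other targets report on p53 activity to different degrees, since many also answer to other transcription factors.

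The comparison asked whether these genes moved together or split between MB1-47 and DMSO. They split. TP53INP1, MDM4, FAS and ZMAT3 were higher with MB1-47, AEN, TRIAP1 and PLK3 were lower, and MDM2 and PLK2 did not pass the threshold. The call of PLK3 was narrow (adjusted p = 0.0495, limma) and passed in only 5 of 15 other settings. Of the 9 members, 7 passed an adjusted p of 0.05 in limma, against 38.1% of all genes tested; 4 passed as higher (18.3% of all genes) and 3 as lower (19.8% of all genes). The same 7 members had no overlap between the 3 MB1-47 and the 3 DMSO libraries, which was the case for 49.3% of all genes. The members' median log2 change was 0.19, and that of all tested genes was 0.02. Changes throughout are log2 fold changes of normalized counts + 1, MB1-47 minus DMSO, ± SE, and levels are mean ± SD of normalized counts (n = 3 in each group). They are relative levels of bulk RNA, in which fewer expressing cells and less RNA per cell cannot be told apart.

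**Figure D1:**
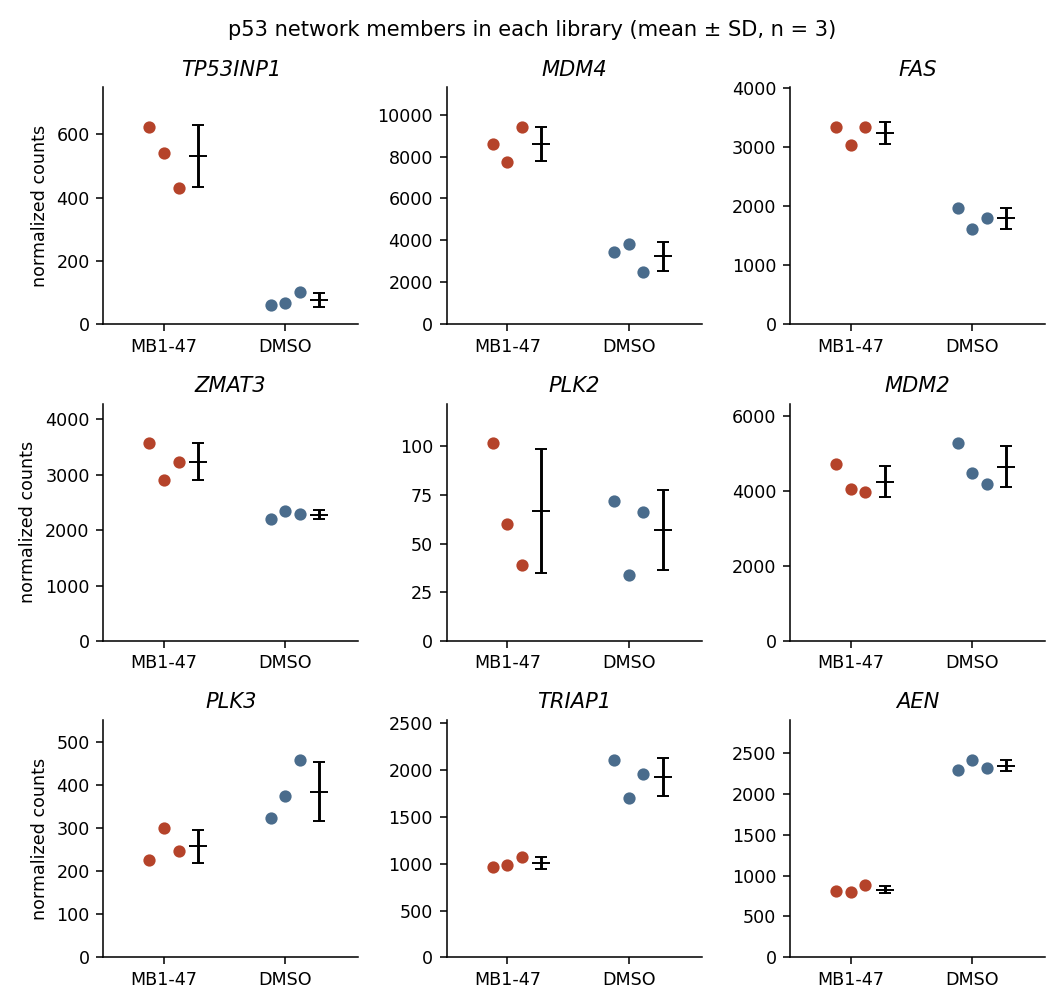
Normalized counts of the 9 members in each library, MB1-47 on the left and DMSO on the right of each panel, with points for single libraries and bars for mean ± SD (n = 3); each vertical axis starts at 0. The groups lie apart in 7 panels and overlap for PLK2 and MDM2, for which the MB1-47 means of 66.9 and 4244 lie within the spread of the libraries around the DMSO means of 57.2 and 4647.

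As for the libraries as a whole, the normalized counts summed to between 2.83e+07 and 2.97e+07 with MB1-47 and between 3.08e+07 and 3.27e+07 with DMSO; these totals are not sequencing depths, and the depth is unknown. All 9 of the T-ALL markers matched had a mean of at least 10. They did not move one way: CD3D, CD3G, CD7 and CD1A were lower with MB1-47, BCL11B was higher (0.26, adjusted p = 0.0317, limma, past the threshold in 10 of 15 other settings), and CD3E, CD5, TLX3 and TCF7 were not called. The call of BCL11B was lost without MB1-47 replicate 1 or 3 and without DMSO replicate 2 or 3 (adjusted p from 0.0621 to 0.119, limma). The summed level of the 9 ran from 30827 to 33645 with MB1-47 and from 48485 to 52018 with DMSO. Of 12 markers of other lineages 5 were matched and 3 had a mean of at least 10. Their summed level ran from 7008 to 7637 with MB1-47 and from 16959 to 18612 with DMSO, nearly all of it from CD79A, a B-cell receptor component, and PECAM1, an adhesion molecule. CD14, a monocyte marker, was listed at 0 in all MB1-47 libraries and at 0, 21.9 and 6.04 in the DMSO libraries. Its mean was below the filter, and it was not tested. The part of these shifts in the results below was not tested.

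Of the regulators, MDM4 rose while its paralog MDM2 did not pass. MDM2, on chromosome 12 from 68808176 to 68850686 (GENCODE 29 on GRCh38), has 2 promoters. The second one, inside the gene, is well known to respond to p53. A p53 response element is a tandem pair of 10-base units, and the MDM2 and MDM4 promoters are shown because MDM2 is the textbook p53 target while MDM4 is the member of the pair that moved. The stretches come from RefSeq (GRCh38.p14), on the plus strand, upstream of the start and outside exons, at chr12:68808767-68809001 for the internal MDM2 start and chr1:204516156-204516378 for MDM4. Capitals mark only the 20 bases that best match the p53 response element. Any further, weaker match in a stretch is left in lower case.
MDM2: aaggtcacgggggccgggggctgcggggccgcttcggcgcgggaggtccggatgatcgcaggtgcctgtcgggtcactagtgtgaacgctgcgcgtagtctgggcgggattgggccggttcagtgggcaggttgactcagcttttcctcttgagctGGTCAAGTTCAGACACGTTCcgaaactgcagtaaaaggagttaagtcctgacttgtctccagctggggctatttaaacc
MDM4: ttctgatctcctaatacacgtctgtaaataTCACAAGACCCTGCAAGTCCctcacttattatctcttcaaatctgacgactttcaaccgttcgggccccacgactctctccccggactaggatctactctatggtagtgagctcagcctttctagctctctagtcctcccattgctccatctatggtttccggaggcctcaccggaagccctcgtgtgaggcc
The MDM2 stretch matched the element at 18 of 20 positions, beginning 94 bases before the internal start. A match that good occurred in a window of 0.820% of the 27305 genes with RefSeq windows of 300 bases. The best match of MDM4 had 15 of 20 positions, a match that 74.8% of genes reach or exceed. The search was unlike for the pair, with 4 windows for MDM2 and 1 for MDM4. The rest of the MDM4 gene was not searched. A match describes the letters and does not show binding.

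MDM2 stood at 4712, 4050.2 and 3971 normalized counts in the MB1-47 libraries and at 5270.2, 4479.8 and 4192 in the DMSO libraries. The groups overlapped, and in both the replicate 1 library was the highest. The log2 change of MDM2 was -0.13 ± 0.11 (adjusted p = 0.389, limma), with a 95% interval from -0.37 to 0.11. With equal library totals, the median change over all genes was 0.15 and the change of MDM2 became 8.2e-05. The table gives 1 value per gene, and GENCODE 29 lists 34 MDM2 transcripts, so RNA from its 2 promoters cannot be told apart here.

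MDM4, on chromosome 1 from 204516379 to 204558120, stood at 8609, 7760 and 9414 normalized counts with MB1-47, against 3441, 3836 and 2496 with DMSO. Every MB1-47 library was more than 2-fold above every DMSO library. The mean was 8594 ± 827 with MB1-47 and 3258 ± 689 with DMSO, a 2.64-fold difference (log2 change 1.42 ± 0.14, adjusted p = 2.5e-05, limma). Of all tested genes 8.01% changed by more in either direction. The 17 transcripts of MDM4 are also read as 1 value, and isoforms that lack p53 binding cannot be separated from the full-length form.

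The ratio of MDM2 to MDM4 within a library does not depend on how libraries are scaled. Its log2 value was -0.87, -0.94 and -1.25 in the MB1-47 libraries and 0.61, 0.22 and 0.75 in the DMSO libraries. Thus the sign differed between groups in every library. The group difference was -1.55 on the log2 scale, a 2.92-fold lower ratio with MB1-47, with an exact two-sided permutation p of 0.1, the smallest that 3 against 3 libraries can give (0.2 adjusted over the 2 ratios tested). Since values were not divided by transcript length, the ratio compares the groups and does not tell which of the 2 transcripts is the more abundant.

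**Figure D2:**
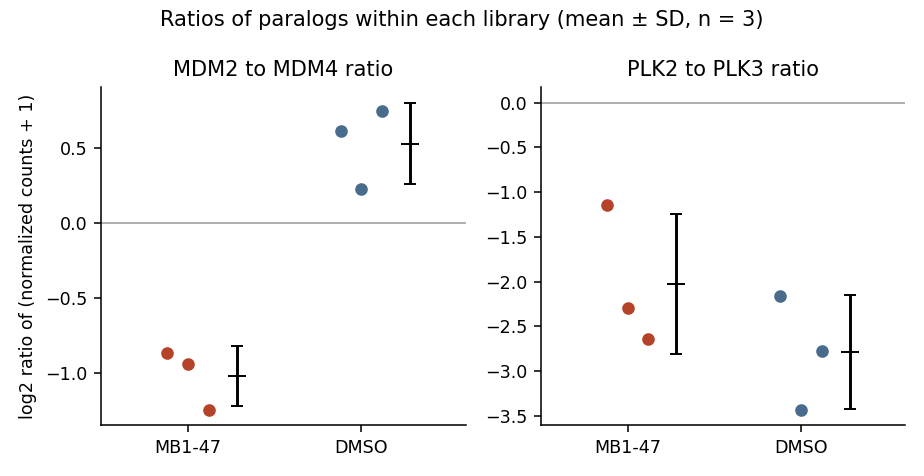
Log2 ratio of normalized counts + 1 within each library for MDM2 to MDM4 and for PLK2 to PLK3, with MB1-47 on the left, DMSO on the right, and bars for mean ± SD (n = 3). The MDM2 to MDM4 ratio averages -1.02 with MB1-47 and 0.53 with DMSO without overlap, while the PLK2 to PLK3 ratios overlap.

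By the shape of its values over the 6 libraries, MDM2 was most like MTFR1, RARS2, CNIH1, ZC3HC1 and GDPGP1 among 10232 compared (mean of 100 or more, members left out), with Pearson's r between 0.976 and 0.987. In each of these genes the replicate 1 library was the highest of its group, and none of the 5 passed the threshold. Both traits follow largely from picking the genes by their likeness to MDM2. Among the members themselves, r over the same 6 libraries ran from 0.902 to 0.951 between MDM4, TP53INP1, ZMAT3 and FAS. For MDM2 against the others it lay between -0.49 and 0.48. Between AEN, TRIAP1 and PLK3, all called lower, r ran from 0.793 to 0.974. These coefficients describe 6 libraries that fall into 2 groups. A high r between members called in the same direction follows largely from those calls.

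Among the targets that act in cell death and stress, TP53INP1 had the largest change of all members. TP53INP1 encodes a nuclear and autophagy protein that promotes cell death and growth arrest, and it lies on chromosome 8 from 94925972 to 94949411. It stood at 624, 542 and 429 normalized counts with MB1-47 and at 62.1, 68.9 and 102 with DMSO. The lowest MB1-47 library was thus more than 4-fold above the highest DMSO library. The mean was 532 ± 97.6 with MB1-47 and 77.8 ± 21.6 with DMSO, a 6.84-fold rise (2.78 ± 0.26, adjusted p = 1.5e-05, limma), and 0.965% of all tested genes changed by more. TP53INP1 lies within the span of NDUFAF6, a complex I assembly gene on the opposite strand, which had 547, 429 and 408 normalized counts with MB1-47 against 605, 605 and 747 with DMSO and was lower (-0.50 ± 0.17, adjusted p = 0.0385, limma). The call of NDUFAF6 passed in 8 of 15 other settings and was lost without MB1-47 replicate 2 or 3 and without DMSO replicate 2 or 3 (adjusted p from 0.0581 to 0.146, limma). The paralog TP53INP2, named after its values were seen, also rose (1.61 ± 0.47, adjusted p = 0.0195, limma; lost without MB1-47 replicate 1 or 2 and without DMSO replicate 3, at 0.0513 to 0.1), with 68.5 ± 24.4 normalized counts under MB1-47 and 20.9 ± 2.71 under DMSO.

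FAS, the death receptor CD95 that starts apoptosis when FAS ligand binds, also rose. The FAS gene, on chromosome 10 from 88990582 to 89015785, stood at 3346, 3035 and 3345 normalized counts with MB1-47, against 1979, 1618 and 1796 with DMSO. No DMSO library came near the MB1-47 libraries, whose mean was 1.80-fold higher (0.85 ± 0.11, adjusted p = 9.4e-05, limma). AEN, on chromosome 15 from 88621296 to 88632282, went the other way. AEN encodes a nuclease that p53 induces and that enhances apoptosis by degrading nucleic acids. It stood at 811, 794 and 879 normalized counts with MB1-47, against 2288, 2418 and 2319.5 with DMSO. AEN had the tightest groups of all members that fell, and DMSO was 2.83-fold above MB1-47 (-1.50 ± 0.11, adjusted p = 2.0e-06, limma); 6.97% of all tested genes changed by more.

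FAS and AEN moved in opposite directions. Each holds, in its RefSeq windows, a 20-base match to the p53 response element with as many positions matched as in MDM2. The match and 5 bases on each side are shown, with capitals marking the match (GRCh38.p14, plus strand). The stretches shown are chr15:88621301-88621330 for AEN and chr10:88991304-88991333 for FAS.
AEN: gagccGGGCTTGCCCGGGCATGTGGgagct
FAS: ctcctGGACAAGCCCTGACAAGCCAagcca
Both matched at 18 of 20 positions, as MDM2 did, and each contained 1 perfect 10-base unit, which 8.06% of genes have in a window and the MDM2 match lacks. The best match of PLK2, at 15 of 20 positions, also contained 1 perfect unit. The AEN match begins 34 bases before the RefSeq start. The FAS match begins 122 bases before the most downstream of its 3 RefSeq starts. Both lie within exons of some GENCODE transcript. Among the 8 members searched, the 3 with such a match were AEN (called lower), FAS (called higher) and MDM2 (not called). TP53INP1, the member with the largest change, was not searched. Whether p53 acts at these matches was not tested. Of the other 5 members with RefSeq windows, the best matches had 15 or 16 of 20 positions, found at least as well in 29.9% or more of genes. Elements that lie outside these 300-base windows were not searched.

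TRIAP1 encodes a small mitochondrial protein that p53 induces and that protects cells from apoptosis by helping to carry phosphatidic acid between the mitochondrial membranes. It stood at 960.4, 987 and 1078 normalized counts with MB1-47, against 2114, 1708 and 1957 with DMSO. The groups lay far apart, and DMSO was 1.91-fold above MB1-47 (-0.93 ± 0.12, adjusted p = 0.00012, limma). PRELID1, its partner in that lipid transfer complex, fell too, to 1931 ± 40.3 with MB1-47 against 4675 ± 169 with DMSO (-1.27 ± 0.09, adjusted p = 1.5e-06, limma). TRIAP1 lies on chromosome 12 from 120443961 to 120446412, back to back with GATC, a mitochondrial glutamyl-tRNA amidotransferase subunit whose annotated start is only 25 bases away. GATC stood at 1541, 1889 and 1631 normalized counts with MB1-47 against 2711, 2566 and 2404 with DMSO, and it fell as well (-0.61 ± 0.11, adjusted p = 0.00123, limma).

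ZMAT3, on chromosome 3 from 179017223 to 179072279, encodes a zinc finger RNA-binding protein that p53 induces and that regulates splicing. It had 3570, 2898 and 3237 normalized counts with MB1-47 and 2199, 2353 and 2286 with DMSO. All MB1-47 libraries were above all DMSO libraries, but the rise was the smallest of the 4, at 1.42-fold (0.50 ± 0.10, adjusted p = 0.00263, limma). Of all tested genes 44.6% changed by more. Its family member ZMAT1 rose more, to 585 ± 61.8 with MB1-47 against 200 ± 62.6 with DMSO (1.58 ± 0.23, adjusted p = 0.00028, limma).

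The polo-like kinases PLK2 and PLK3 are stress-responsive relatives of the mitotic kinase PLK1. PLK2, on chromosome 5 from 58453982 to 58460260, was the lowest member, at 101, 60.2 and 38.9 normalized counts with MB1-47 and 71.6, 33.7 and 66.3 with DMSO. The libraries of both groups were spread over the same range, and the log2 change of 0.19 ± 0.47 (adjusted p = 0.788, limma) had a 95% interval from -0.86 to 1.23. It turned to -0.16 without MB1-47 replicate 1 and to -0.15 without DMSO replicate 2, so no direction is given for PLK2. PLK3, on chromosome 1 from 44800225 to 44805990, had 225, 299.6 and 248 normalized counts with MB1-47 and 322, 374 and 459 with DMSO.

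The PLK3 groups did not overlap, and the change of -0.57 ± 0.21 passed narrowly (adjusted p = 0.0495, limma). Over 15 other settings the adjusted p of PLK3 ran from 0.034 to 0.182 and passed in 5, so this call is the least firm of the 7. It was lost without MB1-47 replicate 1 (0.146) or 3 (0.114) and without DMSO replicate 2 (0.0967) or 3 (0.182). The log2 ratio of PLK2 to PLK3 differed by 0.76 between the groups, with overlap and an exact two-sided permutation p of 0.4. That difference was 0.32 without MB1-47 replicate 1 and 0.44 without DMSO replicate 2. PLK1 itself, a family member outside the 9, was not called, at 1800.2 ± 48.9 with MB1-47 and 2148 ± 184 with DMSO (adjusted p = 0.0783, limma), although its groups did not overlap.

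**Figure D3:**
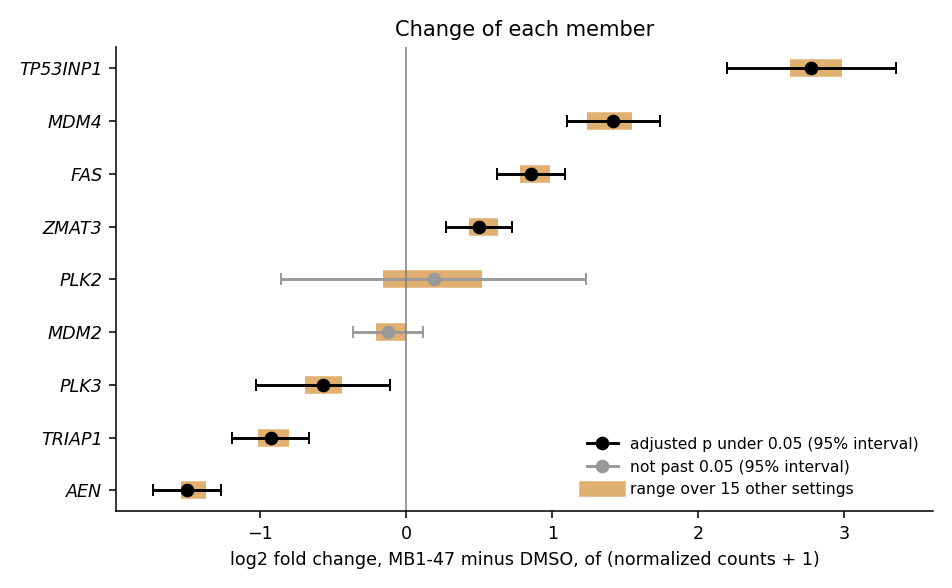
Log2 fold change of each member, MB1-47 minus DMSO, with its 95% interval from limma (points and thin bars) and the range of the change over 15 other settings (wide bands); black points passed an adjusted p of 0.05. TP53INP1 lies at 2.78 and AEN at -1.50, and the bands of the 4 members that rose and the 3 that fell stay on their side of 0.

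Other p53 targets split in the same manner, at about the rate of all genes. Of 54 further targets listed, 46 were tested, and 12 were higher and 6 lower, so 39.1% passed against 38.1% of all genes. Their median log2 change was 0.19, that of all tested genes 0.02. With equal library totals 18 were higher and 5 lower, while over all genes 3335 were then higher and 2063 lower, in place of 2458 and 2667.

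The targets for growth arrest and stress signalling ran over the widest range: 5 of 11 were higher and 2 were lower, or 63.6% called against 38.1% of all genes (18.3% higher and 19.8% lower). CDKN1A, the cell cycle inhibitor p21 and the best known p53 target, fell to 28.96, 20.1 and 13.7 normalized counts with MB1-47, against 70.8, 118 and 85.0 with DMSO (-2.10 ± 0.46, adjusted p = 0.00418, limma). The groups did not overlap, at low levels throughout. BTG2, an anti-proliferative factor, moved the opposite way, to 3260 ± 302 with MB1-47 against 806 ± 80.7 with DMSO (2.02 ± 0.12). CCNG1, which encodes cyclin G1 and is an established p53 target, was 2.41-fold higher (1.26 ± 0.09). PHLDA3, an inhibitor of AKT signalling, was higher by 2.01 ± 0.56, a call lost without MB1-47 replicate 1 (adjusted p = 0.0751, limma). The sestrin genes SESN1 and SESN2, named after their values were seen, were the other two that rose. TRAF4, an adaptor protein, fell (-0.93 ± 0.14). PPM1D, the phosphatase WIP1 that switches p53 signalling off and like MDM2 acts in feedback, was not called, at 1159 ± 91.5 with MB1-47 and 1115 ± 42.0 with DMSO. GDF15 was below the filter, with no more than 7.56 normalized counts in any library.

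Of the 11 targets for cell death tested, 4 were higher and 3 lower, which is again 63.6% called against 38.1% of all genes. BBC3, which encodes the BH3-only protein PUMA, stood at 198, 198 and 153 normalized counts with MB1-47, against 74.7, 32.2 and 29.9 with DMSO, a 4.01-fold rise (2.10 ± 0.40, adjusted p = 0.00159, limma). TNFRSF10B, the TRAIL receptor DR5, was 1.96-fold higher (1.001 ± 0.17). Its paralog TNFRSF10A, the TRAIL receptor DR4, was lower by a narrow margin (-0.62 ± 0.22, adjusted p = 0.049, limma), a call that was lost with any 1 library left out (adjusted p from 0.061 to 0.18, limma). PIDD1, which builds a caspase-2 activating complex, also fell (-0.71 ± 0.13). The remaining called genes were named after their values were seen. PMAIP1 was lower (-0.40 ± 0.08, adjusted p = 0.00235, limma), and passed in all 15 other settings. APAF1 (0.52 ± 0.13) and CYFIP2 (0.28 ± 0.07) were higher, and each passed in 14 of 15 other settings. Of 7 targets for DNA repair and nucleotide supply tested, only ANKRA2 was higher (0.65 ± 0.16) and limma called none lower, adjusted or unadjusted. Of 8 targets in metabolism, autophagy and mitochondria limma called none, and 1 was higher and none lower at an unadjusted p of 0.05. Of 9 membrane and other targets, TRIM22 (0.75 ± 0.10) and LRP1 (0.94 ± 0.33) were higher and the tetraspanin gene CD82 was lower (-1.81 ± 0.17). The call of LRP1 was lost without MB1-47 replicate 1 or 2 and without DMSO replicate 2 or 3 (adjusted p from 0.0519 to 0.173, limma).

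**Figure D4:**
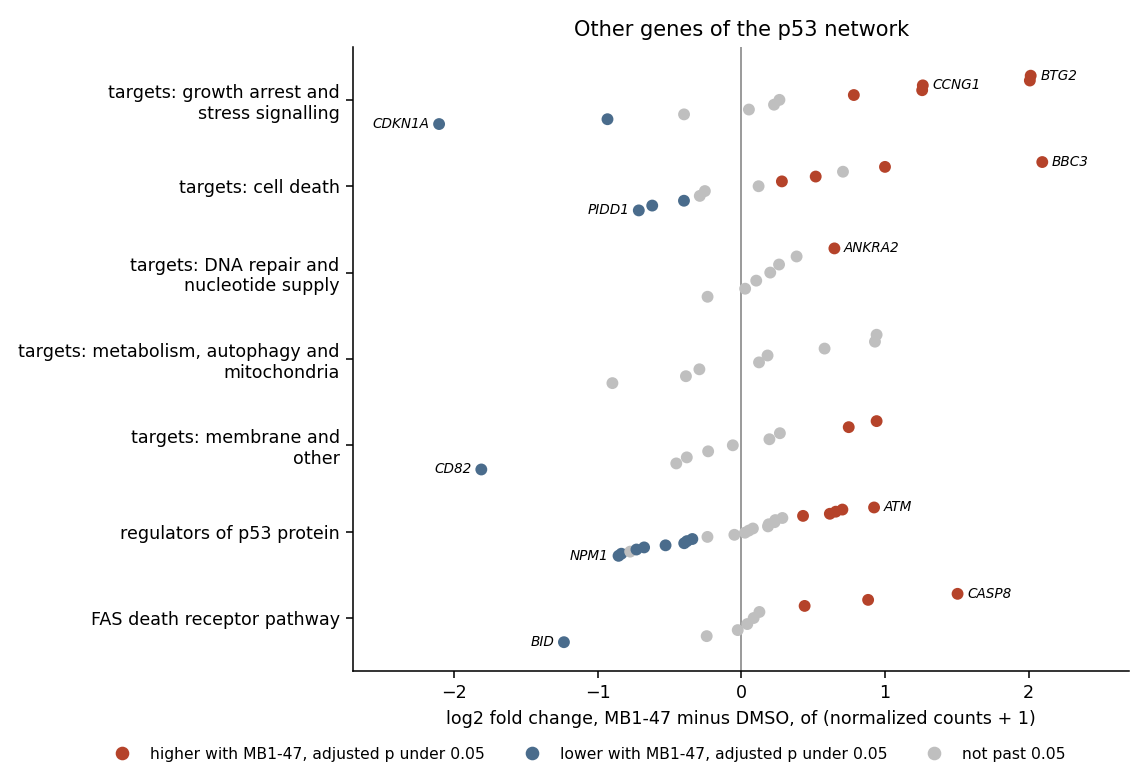
Log2 fold change, MB1-47 minus DMSO, of other p53 targets by role, of regulators of p53 protein and of the FAS pathway; each point is a gene tested, coloured where the adjusted p was under 0.05. Points past the threshold lie on both sides of 0 in most rows, from CDKN1A at -2.10 to BBC3 at 2.10.

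In the FAS pathway, 3 of 9 genes tested were higher and 1 was lower, so that 44.4% were called, close to the 38.1% of all genes. CASP8, the initiator caspase recruited by FAS, rose to 4036 ± 91.7 normalized counts with MB1-47 against 1425 ± 136 with DMSO (1.51 ± 0.10), its relative CASP10 was 1.83-fold higher (0.88 ± 0.15), and CFLAR, which blocks caspase-8, was 1.36-fold higher (0.44 ± 0.10). BID, which carries the signal of caspase-8 to mitochondria, fell to 1146 ± 220 with MB1-47 against 2674 ± 254 with DMSO (-1.23 ± 0.14). The adaptor FADD was not called, and FASLG, the ligand, was below the filter. The exonuclease gene ISG20 is a relative of AEN and lies 3870 bases beyond it on the same strand. It stood at 345, 413 and 377 normalized counts with MB1-47, against 43.7, 30.5 and 102 with DMSO, a rise of 2.85 ± 0.39 where AEN fell. Another relative of AEN, ISG20L2, fell (-0.51 ± 0.16, adjusted p = 0.0294, limma), a call lost without MB1-47 replicate 1 or MB1-47 replicate 2 or DMSO replicate 2 or DMSO replicate 3 (adjusted p from 0.0863 to 0.115, limma).

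Of 24 regulators of p53 protein, 5 were higher and 8 lower with MB1-47 (median log2 change 0.04). That is 54.2% called against 38.1% of all genes, of which 18.3% were higher and 19.8% lower. ATM, the kinase that signals DNA breaks to p53 and MDM2, was 1.89-fold higher (0.92 ± 0.14), and CREBBP, an acetyltransferase for p53, was 1.63-fold higher (0.70 ± 0.11). NPM1, a nucleolar protein that can bind MDM2, was lower (-0.85 ± 0.08), as were CHEK1, a checkpoint kinase (-0.83 ± 0.10), and DAXX, a partner of MDM2 (-0.73 ± 0.25, adjusted p = 0.0428, limma), whose groups overlapped. The call of DAXX was lost without MB1-47 replicate 1 or 2 and without DMSO replicate 1 or 3 (adjusted p from 0.0699 to 0.162, limma). Of the ribosomal protein genes whose products hold back MDM2, RPL5 and RPL11 did not pass and RPL23 was lower (-0.38 ± 0.12, adjusted p = 0.0283, limma), in 9 of 15 other settings too. The call of RPL23 was lost without MB1-47 replicate 2 and without DMSO replicate 1 or 3 (adjusted p from 0.087 to 0.111, limma). With equal library totals 9 regulators were higher and 5 lower, and over all genes 3335 were higher and 2063 lower. The number lower was 5 without DMSO replicate 1 and 4 without DMSO replicate 3.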

How the data were processed

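Strand-specific RNA-seq of total RNA was deposited as 1 table of normalized counts per gene symbol for 6 libraries. The tools named in the submitters' processing notes are kallisto 0.44.0 and DESeq, and the build is GRCh38.p13; how transcripts became genes, and with which annotation, is not given in the sources used here. These deposited values are treated as a signal that is never negative. They are not whole: at the best common step, 62.9% to 67.9% of a library's values under 10 lay within 0.1 steps of a whole multiple, so whole reads were not recovered and count models were not run. kallisto splits reads between similar transcripts, and whether it used strand is not given, so reads of overlapping genes may mix.

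Genes with a mean of at least 10 were tested on log2(value + 1) with limma 3.58.1 (R 4.3.3, intensity trend, Benjamini-Hochberg adjustment over 13465 genes, threshold 0.05). Ratios were tested by exact permutation in scipy 1.17.1. The steps were tested on simulated data in which 200 genes were changed, far fewer than the 5125 called here. There 17.9% of 1.5-fold, 43.3% of 2-fold and 77.3% of 4-fold changes were recovered. Of the calls, 4.17% were of unchanged genes. A gene that was not called may therefore still have changed. Members, lists and alternatives were chosen with earlier results of these data known. The naming rule took all members, up to 4 called genes with a mean of at least 50 from each list plus up to 2 in the direction with fewer calls, CDKN1A, PPM1D, BBC3 and GDF15, and the 5 genes most like MDM2; other genes were added after their values were seen. Positions are those of GENCODE 29. Of the 9 members, 8 matched RefSeq promoter windows (250 bases before to 50 after a start, both strands searched), and TP53INP1 was left out. No pair of libraries shared a value above 0 in the same gene. Whether replicate numbers pair the libraries is not known, and the main tests treated them as unpaired.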

Additional observations from a re-analysis of the deposited data

How the results depend on the processing

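Each result was recomputed under 15 other settings: each library left out (6), limma with the replicate number as a block or without its trend, quantile normalization, equal totals or TMM factors for scaling, a minimum mean of 50 or none, and a pseudocount of 5 or 0.5. edgeR and DESeq2, planned for whole reads, were not run because whole reads were not recovered. Of 41 named genes tested, 29 kept their direction and their side of the threshold in all settings. The 4 members called higher passed in each of them, and so did AEN and TRIAP1; PLK3 missed the threshold in 10, so that 2 or 3 members were lower. The number of regulators of p53 protein called higher was 9 with equal library totals, and the number lower was 5 with equal library totals, 5 with quantile normalization and 4 without a trend, against 5 and 8; with a library left out the number higher ran from 4 to 6 and the number lower from 4 to 9. The cause was not tested.

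Signs turned in 7 cases, all of genes that were not called: MDM2 (8.2e-05), CNIH1 (1.0e-05) and RARS2 (0.0042) with equal library totals, RARS2 without DMSO replicate 1 (0.0022), PPM1D without MB1-47 replicate 3 (-0.0033), and PLK2 without MB1-47 replicate 1 (-0.16) or DMSO replicate 2 (-0.15). Same-numbered libraries hardly deviated together (r of 0.022, 0.057 and 0.0072), which cannot tell whether they were paired. With the replicate block the members called higher and lower numbered 4 and 2, and other p53 targets 12 and 7. PLK3 then had an adjusted p of 0.0529 (limma). In the block the ratio of MDM2 to MDM4 had an exact sign-flip p of 0.25, the smallest that 3 pairs can give. With a library left out, changes ran from -0.0033 to 0.11 for PPM1D, from -0.255 to 0.0022 for RARS2 and from -0.16 to 0.52 for PLK2, and the ratio of MDM2 to MDM4 changed by -1.70 to -1.43, and that of PLK2 to PLK3 by 0.32 to 1.08. Depth is unknown, which limits low genes such as PLK2 and CDKN1A most.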
